A study of Mus musculus with 3 samples.

Results

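Kupffer cells (KCs), the macrophages that live in the sinusoids of the liver, are defined by a small set of transcription factors. The 8 genes described here are Nr1h3, Rxra, Spi1, Spic, Id1, Id3, Maf and Zeb2. They were chosen by name as factors of the KC lineage, with earlier results of these data known. They are 8 of the 20207 genes found in the count tables of both libraries (21550 genes in one and 22517 in the other). Their levels were read in KCs, monocyte-derived macrophages (MoMFs, macrophages that, like KCs, are rich in C1q transcripts but have a low level of KC markers), monocytes and the other cell types of the liver, library by library.

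Liver non-parenchymal cells (NPCs) of mice were captured as single cells on the BD Rhapsody system, in which each RNA molecule carries a unique molecular identifier (UMI), and their whole transcriptomes were sequenced. The first library is titled MCD in its label, letters that the study uses for a methionine- and choline-deficient diet, and its table, whose header names APAP0h, was matched to it only by elimination. The study describes single-cell data of wild-type (WT) C57BL/6 J mice on the normal chow diet (NCD), and no other library here could hold them. It is called the NCD library throughout, but its diet is not settled by the label, and every comparison between the libraries rests on that reading. The second, called the HFHC pool, holds WT mice and mice with a whole-body deletion of Chi3l1 (labelled Chil1-/-) together. All are taken to be on the high-fat, high-cholesterol (HFHC) diet, which the study uses as a model of metabolic dysfunction-associated steatotic liver disease. The label writes HCFC for the WT mice, read here as HFHC. The cells of the pool carry no genotype in the tables used here, since the library of sample tags was not analysed, so the level of Chil1 cannot check a label. The number of mice per library and their age are not given in the labels. For its single-cell data the study states 1 feeding time, the same for NCD and HFHC. It gives another time for its methionine- and choline-deficient diet. With 1 library per condition there was no replicate and no test was made. Diet, genotype, capture and library cannot be told apart.

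The study describes resident KCs as embryo-derived. After their loss, monocytes that enter the empty niche can become KCs. Sinusoidal endothelial and stellate cells give them Notch and bone morphogenetic protein (BMP) signals, and desmosterol and other sterols act on the nuclear receptor LXRα. PU.1, MAF and ZEB2 act in many myeloid cells, whereas LXRα, SPIC, ID1 and ID3 are better known as factors of tissue macrophages.

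The cells that passed the filters (200 to 4000 genes and at most 25% mitochondrial UMIs) numbered 23346 in the NCD library and 19625 for the pool, with a median of 1322.5 and 1622 UMIs. The libraries share 756 cell indices, and cells were kept apart by library. Clusters were formed without the 8 genes and named from markers among which none of the 8 stands, so that each name is to be read as cells like that type. KCs numbered 2692 in the NCD library and 395 for the pool, MoMFs 87 and 104, and monocytes 340 and 512. The KC markers were found in KCs, 11 of 11, with a summed level of 22960 and 19005 CPM (UMIs of a gene scaled to all UMIs of the type) and Clec4f the highest at 6165 and 4549. In MoMFs they summed to 3507 (10 of 11, Marco at 0) and 1550 CPM, and in monocytes to 481 and 266. The MoMF markers did not set MoMFs (16017 and 12707 CPM) apart from KCs (16698 and 14219). A further 682 and 148 cells lay in clusters that mixed markers of several types and 3654 and 3167 in clusters that met no name, and both were left out. For each type, UMIs were added up over its cells and scaled to CPM of all UMIs of that type, with exact 95% Poisson intervals in brackets, which cover counting error only.

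Of the 8 genes, 5 had windows around a start site in the RefSeq promoter table (build GRCm38.p6), with 10 windows in all, and Spi1, Id1 and Maf had none. A window spans 250 bases before a start site and 50 after it. One window per gene is shown, picked because it holds letters that a factor of the set or of its pathway is known to read. The letters searched on both strands were GAGGAA (the core read by PU.1), GGCGCC (a BMP SMAD element), TGCTGA (a part of the MAF element) and AGGTCA (the half-site of nuclear receptors such as LXRα with RXRα). Capitals mark a match on either strand, and no matches overlap one another. Each window is given on the strand of its gene, at chr2:91194986-91195285 (minus strand) for Nr1h3, chr2:27709042-27709341 (plus) for Rxra, chr10:88682974-88683273 (minus) for Spic, chr4:136143572-136143871 (plus) for Id3 and chr2:45117393-45117692 (minus) for Zeb2.
Nr1h3: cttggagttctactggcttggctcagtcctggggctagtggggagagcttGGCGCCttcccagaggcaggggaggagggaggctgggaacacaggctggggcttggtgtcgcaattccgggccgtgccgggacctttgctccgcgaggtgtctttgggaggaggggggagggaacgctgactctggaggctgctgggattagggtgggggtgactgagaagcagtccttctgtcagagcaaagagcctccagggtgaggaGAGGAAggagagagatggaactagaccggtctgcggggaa
Rxra: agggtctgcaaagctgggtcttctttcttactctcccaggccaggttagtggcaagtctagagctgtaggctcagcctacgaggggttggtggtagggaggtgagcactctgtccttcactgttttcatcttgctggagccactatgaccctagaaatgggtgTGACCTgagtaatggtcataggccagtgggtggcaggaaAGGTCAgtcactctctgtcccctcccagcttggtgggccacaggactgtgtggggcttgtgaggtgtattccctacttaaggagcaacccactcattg
Spic: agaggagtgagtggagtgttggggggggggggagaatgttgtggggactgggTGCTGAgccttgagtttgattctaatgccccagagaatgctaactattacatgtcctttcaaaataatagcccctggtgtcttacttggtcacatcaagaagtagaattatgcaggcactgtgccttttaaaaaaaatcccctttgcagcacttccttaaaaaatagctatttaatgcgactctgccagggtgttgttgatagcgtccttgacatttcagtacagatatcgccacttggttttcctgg
Id3: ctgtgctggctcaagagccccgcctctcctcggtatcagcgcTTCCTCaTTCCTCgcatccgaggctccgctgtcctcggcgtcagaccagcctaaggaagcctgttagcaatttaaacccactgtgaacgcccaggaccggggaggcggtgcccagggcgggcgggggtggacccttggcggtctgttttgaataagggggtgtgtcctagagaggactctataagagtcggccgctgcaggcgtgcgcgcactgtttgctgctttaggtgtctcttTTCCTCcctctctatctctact
Zeb2: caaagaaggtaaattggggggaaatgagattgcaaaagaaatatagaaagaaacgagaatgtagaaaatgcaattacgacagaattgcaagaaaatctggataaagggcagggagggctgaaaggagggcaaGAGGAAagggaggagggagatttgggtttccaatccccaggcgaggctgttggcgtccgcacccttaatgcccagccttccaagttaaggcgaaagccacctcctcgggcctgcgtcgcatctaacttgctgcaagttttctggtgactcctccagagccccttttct
The Nr1h3 window held GGCGCC at -200 and GAGGAA at 10 from the start site, whose base is counted as 0. The Rxra window held AGGTCA on opposite strands at -87 and -48. The Spic window held TGCTGA at -198. GAGGAA lay 3 times on the opposite strand of the Id3 window, at -208, -201 and 28, and once in the Zeb2 window at -118. The Rxra window not shown, at chr2:27676951-27677250, held none of the letters searched. The Nr1h3 window not shown held GGCGCC without GAGGAA. Such short runs are frequent. Among all 32851 windows of the table, GAGGAA was in 28.3%, TGCTGA in 19.5%, AGGTCA in 16.3% and GGCGCC in 11.9%. These shares do not allow for the choice of a window with a match, so that a match describes the letters and not a site in use.

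Nr1h3 encodes LXRα, the sterol-sensing nuclear receptor on which KC identity depends, and lies on the minus strand at chr2:91184061-91202834. The interval of KCs lay above that of every other type in both libraries, which held for no other gene of the set. In KCs it was at 199 CPM [191 to 206] in the NCD library and at 239 [223 to 255] for the pool. MoMFs came next at 77.4 [49.6 to 115] and 153 [128 to 182], then hepatocytes at 63.4 and 75.8. The intervals of MoMFs and hepatocytes overlapped in the NCD library and not in the pool. Monocytes were at 38.5 [28.8 to 50.5] and 47.6 [40.5 to 55.7], and endothelial cells at 6.24 and 18.2. With each cell thinned to 2000 UMIs, which leaves out shallower cells, an Nr1h3 UMI was found in 30.6% of 2138 NCD KCs and 32.8% of 338 KCs of the pool. The shares were 6.49% and 6.41% in monocytes, and 0% in B cells of both libraries, which allows up to 1.88% and 0.516%. Without thinning they were 50.4% and 69.1% in KCs, where the median KC had 4523.5 and 10048 UMIs. B cells, with medians of 1333 and 2643 UMIs, had 0.493% and 1.41%.

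Rxra, at chr2:27676440-27762957, encodes RXRα, the partner with which LXRα binds DNA. It was highest in KCs of the NCD library, at 362 CPM [351 to 372], above hepatocytes at 260 [243 to 277], MoMFs at 155 [114 to 205] and endothelial cells at 108 [100 to 117]. In the pool KCs were at 145 [132 to 158], level with hepatocytes at 145 [139 to 152], and MoMFs at 70.1 [53.5 to 90.2]. Monocytes had the lowest Rxra of these types, at 43.0 and 19.7. Thinned to 2000 UMIs, 50.8% of NCD KCs and 24.3% of KCs of the pool had a UMI, against 5.67% and 2.52% of B cells. Without thinning the shares were 68.8% and 60.5% in KCs, against 1.97% and 3.65% in B cells.

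Spi1, at chr2:91082390-91115756, encodes PU.1, the ETS factor needed by all myeloid cells, and its end lies 68304 bases from Nr1h3 on the same chromosome. It was found across myeloid cells. Neutrophils were highest in both libraries, at 1083 [1050 to 1117] and 916 [853 to 983] CPM, followed by patrolling monocytes at 949 [832 to 1079] and 716 [628 to 812], whose interval overlapped that of neutrophils in the NCD library. Thinning left 164 of 3235 NCD neutrophils, and in these Spi1 was at 509 CPM, below patrolling monocytes at 883, monocytes at 758 and KCs at 646. KCs were at 634 [621 to 648] and 586 [561 to 612], monocytes at 725 [680 to 772] and 508 [484 to 533], and MoMFs at 513 [436 to 599] and 417 [375 to 463]. KCs were thus below monocytes in the NCD library and above them in the pool, with intervals apart in both.

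Spic, at chr10:88674772-88685015, encodes a PU.1-related ETS factor tied to macrophages that recycle heme and iron. KCs were at 160 [153 to 167] CPM in the NCD library and at 171 [158 to 185] for the pool. MoMFs were at 71.0 [44.5 to 107], resting on 22 UMIs, and at 144 [119 to 171]. The intervals of KCs and MoMFs were apart in the NCD library and overlapped in the pool. Monocytes were at 17.0 [10.8 to 25.6] and 30.3 [24.7 to 36.9], patrolling monocytes at 24.1 and 32.5, and every other type with at least 50 cells was below 10 CPM. Among thinned cells, 23.6% and 23.4% of KCs had a Spic UMI, against 1.95% and 3.61% of monocytes and 1.03% and 0.561% of B cells. Without thinning the shares in KCs were 37.9% and 55.9%, and in B cells 0.493% and 0.824%.

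Id1 and Id3 encode inhibitors of basic helix-loop-helix factors and are direct targets of BMP signals. Id1, at chr2:152736251-152737410, was at 87.2 CPM [82.3 to 92.4] in KCs of the NCD library and at 79.3 [70.4 to 89.1] in those of the pool. MoMFs were above KCs in the NCD library at 171 [128 to 224], and at 65.4 [49.4 to 84.9] in the pool, where the intervals overlapped. Cholangiocytes were at 96.6 [67.3 to 134] in 82 NCD cells, between MoMFs and KCs with overlapping intervals, and at 132 [86.0 to 193] in the pool, from 27 cells. Endothelial cells were at 70.8 [64.2 to 77.8] and 35.6 [29.9 to 41.9], and monocytes at 15.6 and 12.1. Thinned shares in KCs were 13.6% and 12.1%, against 2.58% of 194 B cells and 0% of 713. Without thinning they were 24.5% and 31.1% in KCs, against 0.634% and 0.118% in B cells.

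Id3, at chr4:136143497-136145755, was high in macrophages and endothelial cells, with stellate cells at 553 [460 to 659] (41 NCD cells) and 390 [257 to 568] (11 cells of the pool), and cDC1 and cDC2 between 295 and 360. MoMFs were highest in both libraries at 810 [713 to 917] and 835 [775 to 899] CPM, with KCs at 583 [570 to 596] and 727 [699 to 755] and endothelial cells at 562 [543 to 581] and 502 [480 to 524]. The intervals of KCs and endothelial cells overlapped in the NCD library and were apart in the pool. Monocytes stood far lower, at 83.7 [69.0 to 101] in the NCD library and 217 [202 to 234] for the pool. In thinned cells the share with an Id3 UMI was 61.8% and 62.1% in KCs, 10.1% and 21.6% in monocytes, and 13.9% and 12.2% in B cells, so that the share of NCD monocytes lay at the level of B cells. Unthinned shares were 71.8% and 80.3% in KCs and 8.73% and 15.9% in B cells.

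Maf, at chr8:115682942-115707794, encodes c-MAF and was highest in endothelial cells, at 3740 [3691 to 3789] and 2216 [2170 to 2263] CPM. MoMFs followed at 2781 [2599 to 2973] and 1225 [1152 to 1302], then KCs at 2100 [2076 to 2125] and 931 [900 to 963], then T cells at 597 and 615. Monocytes were at 320 [290 to 352] and 178 [164 to 193]. Among types with at least 50 cells the order of these 4 was the same in both libraries, with every interval apart from the next. The 41 stellate cells of the NCD library were at 1460 [1307 to 1627], above T cells.

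Zeb2, at chr2:44983632-45117395, encodes a zinc finger repressor that keeps tissue macrophages in their identity. Its levels were close to one another in monocytes and macrophages. In the NCD library MoMFs were at 452 [380 to 533], patrolling monocytes at 418 [342 to 507], monocytes at 411 [378 to 447] and KCs at 374 [363 to 384] CPM, each overlapping its neighbour. In the pool monocytes were at 632 [605 to 660], MoMFs at 624 [572 to 679], KCs at 511 [488 to 535] and patrolling monocytes at 506 [433 to 587]. Dendritic cells were lower, with pDCs at 226 and 340, cDC2 at 127 and 233 and cDC1 at 18.6 and 21.6. Endothelial cells were at 135 and 144, and the 41 NCD stellate cells at 376 [300 to 465]. The antisense gene Zeb2os shares 653 exonic bases with Zeb2 on the opposite strand, Gm15655 shares 440 with Maf, and whether the counting used strand is not given in the sources used here, so that these levels may hold reads of the partner.

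**Figure D1:**
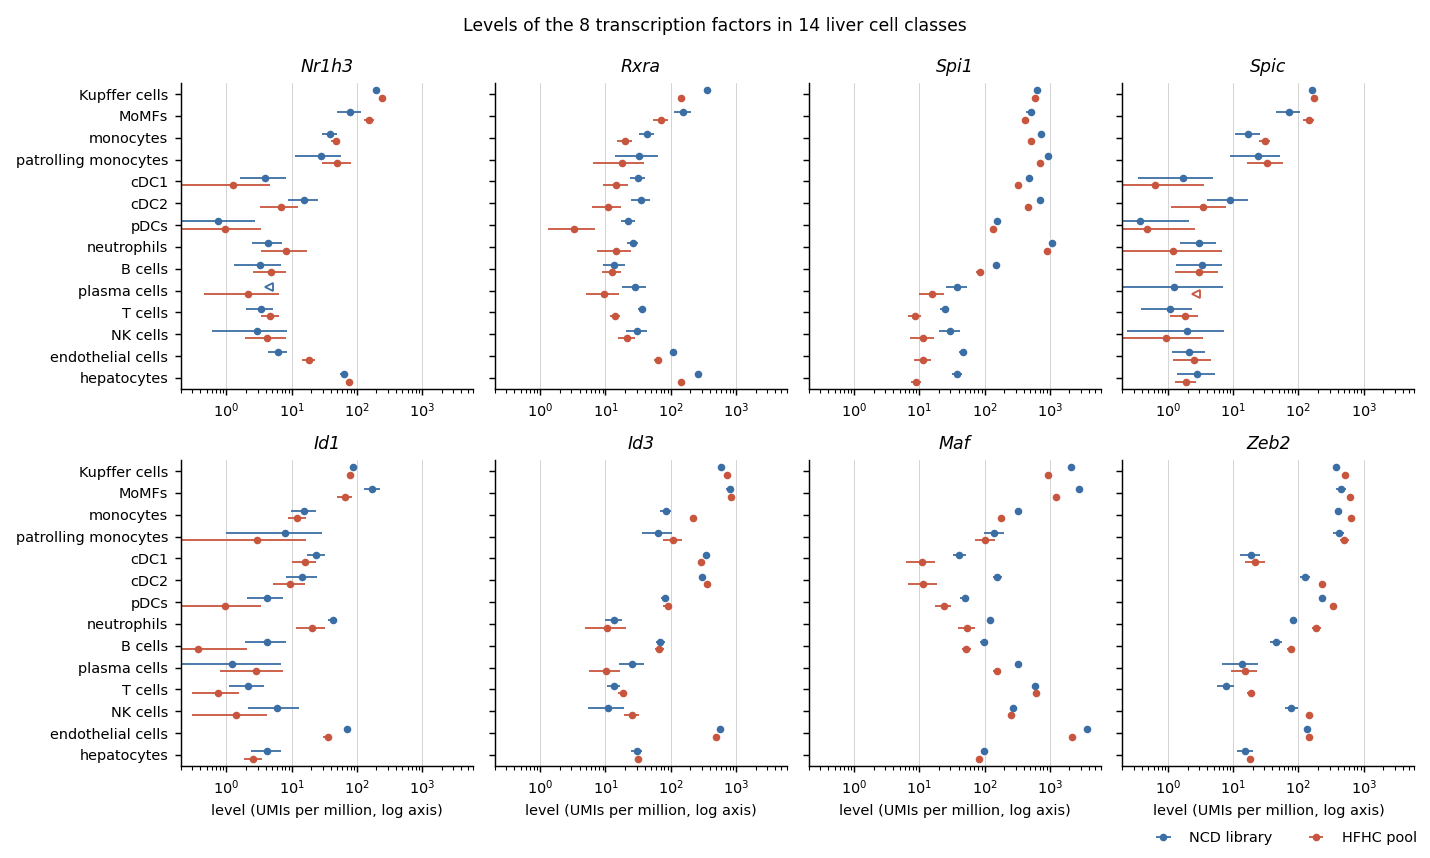
Level of each of the 8 genes (CPM, log axis) in the 14 cell types with at least 50 cells in both libraries, NCD library and HFHC pool side by side. Bars are exact 95% Poisson intervals and open triangles mark the upper limit where no UMI was found. Nr1h3 and Spic stood highest in KCs in both libraries, Spi1 in neutrophils and Maf in endothelial cells.

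The levels were then set against each other between KCs, MoMFs and monocytes. The measure is a log2 ratio of summed levels after adding 1 UMI. Only genes whose UMIs in the 2 groups sum to 100 or more are counted, and a ratio of at least 1 (2-fold) is a call. From monocytes to KCs, 6 of the 8 genes were higher by at least 2-fold, in both libraries the same 6, where 13.9% of all 8644 genes measured in the NCD library and 11.4% of 6954 in the pool were. These were Rxra (log2 ratio 3.05 in the NCD library and 2.86 for the pool), Spic (3.17 and 2.48), Nr1h3 (2.34 and 2.32), Id1 (2.42 and 2.68), Id3 (2.79 and 1.74) and Maf (2.71 and 2.38). Of the factors that act in many myeloid cells, Spi1 (-0.19 and 0.21) and Zeb2 (-0.14 and -0.31) stayed within 2-fold, while Maf did not. The median over the 8 genes was 2.57 and 2.35, beside 0.01 and -0.08 over all genes. The set was chosen with earlier results of these data known, so that its counts beside the shares of all genes are a description. All 8 reached 100 UMIs, but in the NCD library Nr1h3, Rxra, Spic and Id1 did so through KCs, with 52, 58, 23 and 21 UMIs in monocytes. In the pool Rxra and Id1 did, with 65 and 40.

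Between KCs and MoMFs the differences were smaller. The nuclear receptors and Spic leaned to KCs. In the NCD library Nr1h3 (1.30), Rxra (1.19) and Spic (1.11) were at least 2-fold higher in KCs, 3 of 8 beside 6.76% of all genes. These 3 reached 100 UMIs through KCs, with 24, 48 and 22 UMIs in MoMFs. In the pool 1 of 8, Rxra at 1.02, was, beside 5.87%, also reaching 100 UMIs through KCs with 60 in MoMFs, while Nr1h3 was at 0.63 and Spic at 0.24. Maf (-0.41 and -0.40), Zeb2 (-0.28 and -0.29) and Id3 (-0.48 and -0.20) were higher in MoMFs in both libraries, each within 2-fold. Id1 leaned to MoMFs in the NCD library, with a level in KCs 0.501 times that in MoMFs, just short of 2-fold. The interval of its ratio ran from -1.37 to -0.55. With the 8 genes kept among the features this ratio was -1.08. In the pool Id1 was at 0.26 [-0.14 to 0.72]. In the NCD library the median over all genes was -0.15, and relative to it Maf was at -0.26, Zeb2 at -0.14 and Id3 at -0.34. MoMFs of the NCD library rest on 87 cells and carried more of the KC markers than those of the pool (3507 against 1550 CPM), and the part of these transcripts in the ratios was not tested. The call of Rxra in the pool lay just past the threshold and was lost under 4 of the 9 alternatives, with ratios down to 0.79. With cells put in types by their own marker UMIs, Maf was at 0.18 and 0.13, Id3 at 0.09 and 0.18 and Zeb2 at 0.02 and -0.18. Id1 was then at -0.24 and 0.46, and Nr1h3 of the NCD library lost its call at 0.69. Thinning put Nr1h3 of the NCD library at 2.32. That value reached 100 UMIs through KCs, with an Nr1h3 UMI in only 4 of 62 thinned MoMFs. With no upper limit on genes Id1 was at -0.80 and -0.30.

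Id3, Maf and Rxra were also higher in MoMFs than in monocytes. In the NCD library 5 of the 8 genes had enough UMIs, and Id3 (3.27), Maf (3.12) and Rxra (1.86) were at least 2-fold higher in MoMFs, beside 7.24% of all genes. In the pool 7 had enough, and Maf (2.78), Spic (2.24), Id3 (1.94), Rxra (1.83) and Nr1h3 (1.69) were, beside 5.76%. Spi1 was lower in MoMFs, at -0.49 and -0.28, and Zeb2 differed little, at 0.14 [-0.14 to 0.41] and -0.02 [-0.16 to 0.12]. MoMFs and monocytes stand in several of these ratios, which are thus not independent of one another.

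**Figure D2:**
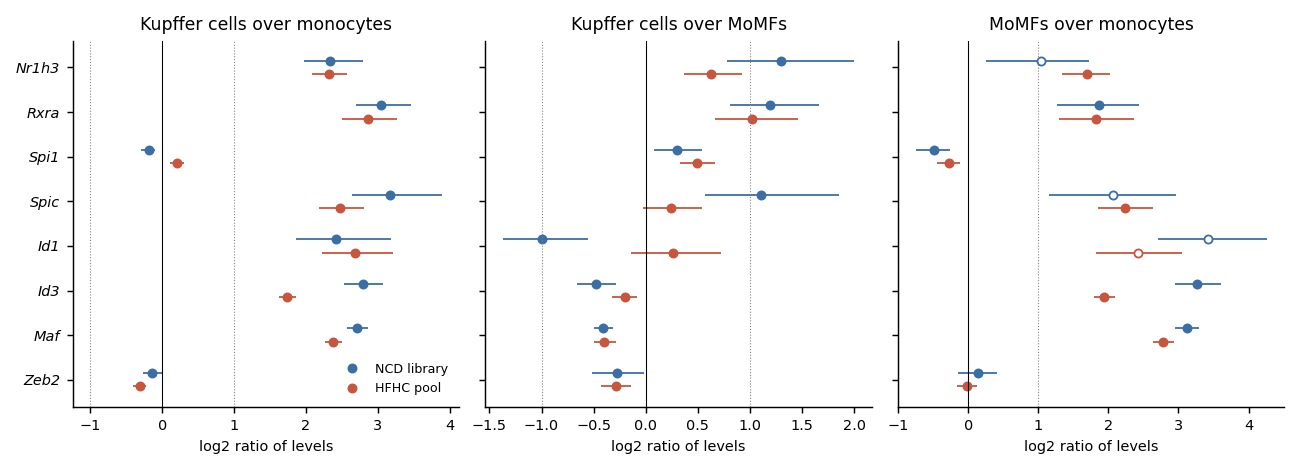
Log2 ratio of each gene between KCs and monocytes, KCs and MoMFs, and MoMFs and monocytes, in the NCD library and the HFHC pool, with 95% counting intervals. Filled points rest on 100 or more UMIs and dotted lines mark 2-fold. Spi1 and Zeb2 lie within 2-fold in all 3 panels, while the other 6 genes lie above 1 in the panel of KCs over monocytes.

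Monocytes were not uniform in these genes. They formed 2 clusters, one led by monocyte markers such as F13a1, Chil3 and Ly6c2 (178 and 213 cells) and one led by the interferon-inducible genes Cxcl9 and Ly6i (162 and 299 cells). Nr1h3 was at 11.3 [4.56 to 23.4] and 12.0 [6.69 to 19.7] CPM in the first cluster, and at 61.4 [44.8 to 82.1] and 69.5 [58.5 to 81.9] in the second. Spic was at 1.62 [0.0410 to 9.03], from 1 UMI, and 7.97 [3.82 to 14.7] in the first, and between 18.8 and 45.4, from 22 UMIs, and at 44.1 [35.4 to 54.2] in the second. Rxra went the other way, at 56.7 [39.5 to 78.9] and 30.3 [21.4 to 41.6] in the first cluster and 31.4 [19.9 to 47.1] and 13.2 [8.71 to 19.2] in the second. Against the first cluster alone, a setting added after seeing the data, the ratios of KCs over monocytes were 3.94 and 4.23 for Nr1h3, and 4.29 for Spic in the pool. Those of Rxra were smaller, at 2.63 and 2.22, and that of Id1 in the pool was 2.25.

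KCs formed 3 clusters, a main one (2029 NCD cells and 327 of the pool), a shallow one (612 and 56, with a median of 1473 and 2161.5 UMIs) and a dividing one led by Ube2c and Birc5 (51 and 12). The ID genes differed between the main and the shallow cluster in both libraries. Id1 was at 92.6 [87.2 to 98.2] and 81.8 [72.4 to 92.1] CPM in the main cluster and at 27.2 [18.9 to 38.1] and 29.5 [11.9 to 60.7] in the shallow one. Id3 was at 620 [606 to 635] and 763 [733 to 793] in the main cluster and at 269 [241 to 300] and 206 [153 to 273] in the shallow one. In the NCD library other genes were also lower in the shallow cluster, with intervals apart. Maf was at 2154 [2128 to 2181] against 1664 [1593 to 1737] and Spi1 at 647 [633 to 662] against 517 [478 to 558]. Spic was at 165 [158 to 172] against 118 [99.5 to 138] and Nr1h3 at 203 [195 to 211] against 167 [146 to 192]. In the pool the intervals of these genes overlapped. Rxra was at 364 and 358 in these clusters of the NCD library, and at 146 and 156 in the pool, with intervals that overlap. Depth differs between the clusters beside these levels, and its part was not tested.

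Timd4, the gene of the receptor TIM4, marks long-lived KCs. Among thinned KCs of the NCD library, those with and without a Timd4 UMI (1623 and 515 cells) had Nr1h3 at 199 [184 to 215] and 204 [177 to 233] CPM and Id3 at 597 [571 to 625] and 568 [523 to 616], with intervals that overlap. Maf was lower with a Timd4 UMI, at 2103 [2053 to 2153] against 2283 [2191 to 2377] without, with intervals apart. In the pool Maf was at 902 [817 to 994] and 1004 [878 to 1144], with intervals that overlap. Spic of the NCD library was at 154 [141 to 168] with a Timd4 UMI and 175 [150 to 202] without, with intervals that overlap. In the pool (225 and 113 cells) it was at 184 [147 to 229] with a Timd4 UMI and at 97.3 [61.0 to 147] without, and Nr1h3 at 233 [191 to 282] and 186, with intervals that overlap. A cell without a UMI at this depth may still carry the transcript.

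Counted per cell, KCs held more of the set at once. The mean count per cell is the sum of the thinned shares of the 8 genes, so that it follows from those shares. The binomial intervals cover counting over the cells of 1 library and no spread between libraries. Thinned to 2000 UMIs, an NCD KC held UMIs of 3.95 of the 8 genes on average and a KC of the pool 3.55, against 3.32 and 3.23 in MoMFs, 1.88 and 1.84 in monocytes, 2.20 and 1.98 in endothelial cells and 0.778 and 0.446 in B cells. At least 5 of the genes were found in 34.1% [32.0 to 36.1%, exact binomial] of NCD KCs and 24.0% [19.5 to 28.9%] of KCs of the pool. In MoMFs the share was 12.9% [5.74 to 23.9%] and 9.71% [4.75 to 17.1%], and in monocytes 0.974% and 0.601%. No B cell held 5, which allows up to 1.88% and 0.516%. All 8 genes were found in 2 NCD KCs.

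**Figure D3:**
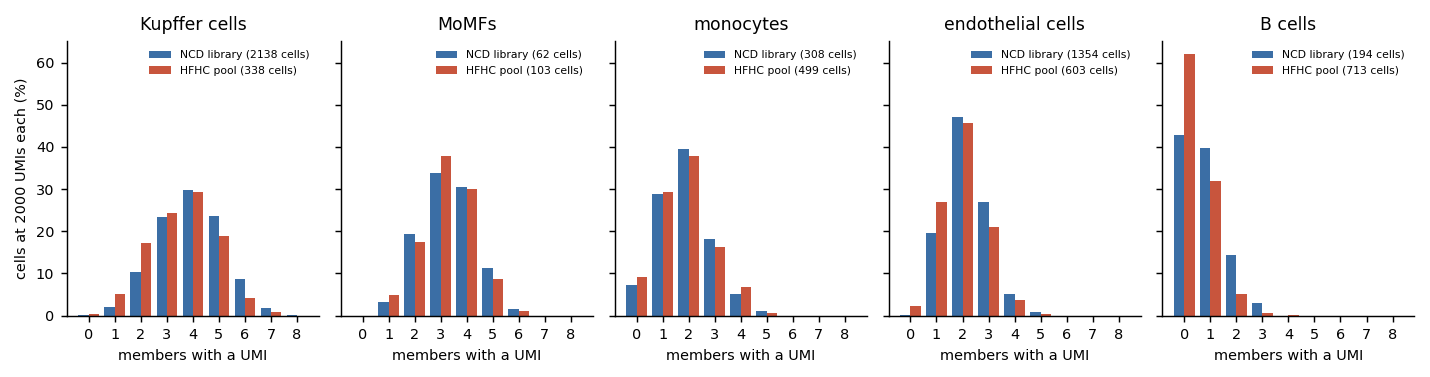
Share of cells (%) by how many of the 8 genes had a UMI, with each cell thinned to 2000 UMIs, in KCs, MoMFs, monocytes, endothelial cells and B cells of the NCD library and the HFHC pool. The median KC held 4 of the genes and the median monocyte 2, in both libraries.

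Between the libraries, KCs of the HFHC pool and of the NCD library differed by at least 2-fold in 2 of the 8 genes, beside 7.45% of all 8876 genes in either direction. Both were lower in the pool. Rxra went from 362 to 145 CPM, a log2 ratio of -1.32 [-1.46 to -1.19], and Maf from 2100 to 931, a ratio of -1.17 [-1.23 to -1.12]. Zeb2 (0.45), Id3 (0.32) and Nr1h3 (0.27) were higher in the pool with intervals above 0, whereas Spi1 was at -0.11 [-0.18 to -0.04]. Spic (0.10 [-0.04 to 0.23]) and Id1 (-0.13 [-0.33 to 0.05]) had intervals that hold 0. The filter of 4000 genes took out 590 cells of the pool and 39 NCD cells that carried KC markers above those of other types, more in the pool than the 395 KCs kept. In these cells Rxra was at 344 [301 to 391] in the NCD library and 160 [154 to 167] for the pool, and Maf at 1811 [1711 to 1915] and 852 [837 to 867], so that the direction of both genes was the same there.

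The lower Rxra and Maf of the pool were not limited to KCs. Rxra was lower in the pool in each of the 7 types with at least 100 UMIs, from -0.77 in neutrophils to -1.36 in T cells. KCs lay -0.34 from the median of the other 6 types. Neutrophils (interval -1.88 to -0.0038) reached 100 UMIs through their NCD cells, with 96 UMIs there and 12 in the pool. B cells (-0.13 [-0.88 to 0.65]) and NK cells (-0.54 [-1.22 to 0.18]) had under 100 UMIs and intervals that hold 0. So did patrolling monocytes (-0.81), whereas the intervals of cDC1, cDC2, pDCs and plasma cells, also under 100 UMIs, lay below 0. Maf had intervals below 0 in 10 of 12 types, the others being T cells at 0.04 and NK cells at -0.13, and reached -3.70 [-4.59 to -3.05] in the cDC2 class of dendritic cells, at 157 against 11.5 CPM. The 161 UMIs of the NCD library lay in 13.3% of 233 cells, and thinning gave 96.4 against 14.5 CPM. Spi1 had intervals below 0 in 11 of 12 types and was at -0.22 [-0.44 to 0.0004] in pDCs, with ratios from -0.11 in KCs to -2.11 in hepatocytes. Neutrophil markers in hepatocytes went from 765 to 71.4 CPM, and their part in that ratio was not tested. Zeb2 had intervals above 0 in 9 of 12, up to 1.26 in T cells, and intervals that hold 0 in endothelial cells (0.10), patrolling monocytes (0.27) and hepatocytes (0.23). Nr1h3 had intervals above 0 in 4 of 5, from 0.25 in hepatocytes to 1.52 in endothelial cells, and was at 0.29 [-0.15 to 0.79] in monocytes. The interval of Spic was above 0 in 2 of 3 types, KCs being the other, and that of Id3 above 0 in 4 of 10 and below 0 in 2. Id1 had intervals below 0 in 3 of 4 types, and KCs at -0.13 stood 0.88 above the median of the other types. Several of these ratios reached 100 UMIs through 1 library. Spic of MoMFs and monocytes did so through the pool, with 22 and 23 NCD UMIs. So did Nr1h3 of MoMFs and monocytes, with 24 and 52, and Zeb2 of T cells, with 44. Id1 and Maf of neutrophils did so through the NCD library, with 17 and 45 UMIs in the pool, and Maf of cDC2, with 17.

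MoMFs of the pool were at least 2-fold lower in 3 of the 8 genes, Id1 (-1.39 [-1.95 to -0.82]), Maf (-1.18 [-1.31 to -1.05]) and Rxra (-1.15 [-1.72 to -0.57]), beside 10.2% of 2010 genes in either direction. Nr1h3 (0.93 [0.35 to 1.68]) and Spic (0.96 [0.35 to 1.74]) were higher in the pool, from 24 and 22 UMIs in the NCD library. In monocytes 2 of 7 genes passed, beside 6.07%. Id3 was higher in the pool at 1.36 [1.09 to 1.67], in both monocyte clusters (53.5 to 214 and 109 to 219 CPM), and Rxra was lower at -1.13 [-1.66 to -0.59]. Without the Cxcl9 and Ly6i cluster Rxra was at -0.91, Id3 at 1.96 and Maf past 2-fold at -1.12. Maf was also past 2-fold after thinning, where Rxra (-1.35) was not counted for too few UMIs, and with cells named by their own markers (-1.21). In endothelial cells 2 of 7 passed, beside 14.2%. Nr1h3 was higher at 1.52 [0.95 to 2.15], from 38 and 72 UMIs. Spi1 was lower at -2.01 [-2.52 to -1.58], from 283 and 45 UMIs, reaching 100 through the NCD library. Endothelial cells of the NCD library also held more neutrophil markers (1374 against 170 CPM, Camp at 0 in both and Ngp in the pool) and those of the pool more hepatocyte markers (7620 against 1515), and the part of these transcripts in the Spi1 and Nr1h3 ratios was not tested. With called doublets left out, Spi1 was at -1.22 and Nr1h3 at 2.34, the latter under 100 UMIs.

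**Figure D4:**
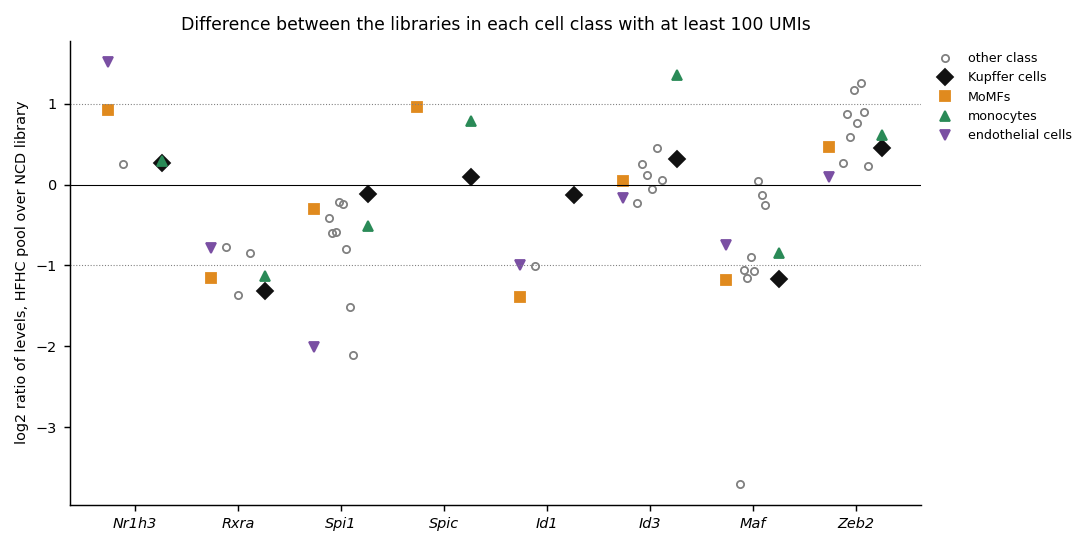
Difference between libraries of each of the 8 genes, as log2 of the pool over the NCD level, 1 point per cell type with at least 100 UMIs. KCs, MoMFs, monocytes and endothelial cells have their own symbols and grey circles are other types. The points of Rxra and Spi1 lie below 0 and those of Zeb2 above 0, though intervals of 1 Spi1 and 3 Zeb2 points hold 0.

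Immediate-early and heat-shock genes that respond to tissue dissociation moved with the library, with a median ratio above 0 in all 14 types (1.06 in hepatocytes to 3.84 in plasma cells). In KCs 9 of 11 were at least 2-fold higher in the pool, beside 3.70% of all genes. Their median was 2.26, with Egr1 at 3.46, beside a median of -0.02 over all genes. In MoMFs 8 of 10 were higher by as much (5.57% of all genes), in monocytes 10 of 11 (3.51%) and in endothelial cells 10 of 11 (9.68%). These genes also differed between types. In MoMFs over monocytes 5 of 7 were at least 2-fold higher in the NCD library (7.24% of all genes) and 2 of 11 in the pool (5.76%). In KCs over MoMFs 3 of 11 were lower in the NCD library (9.14%) and 1 of 11 in the pool (3.22%). The part of the dissociation genes in the ratios of the 8 genes was not tested.

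Genes of the pathways around the 8 factors were read from lists written for this purpose. Of the LXR targets, 7 of 12 measured were at least 2-fold higher in KCs than in monocytes of the NCD library and 9 of 12 in the pool, beside 13.9% and 11.4% of all genes, with medians of 1.87 and 2.10. Abca1, which exports cholesterol, was at 3.47 and 2.76, Apoe, the apolipoprotein, at 3.07 and 3.85, and Pltp, the phospholipid transfer protein, at 3.04 and 4.11. Srebf1 was at 0.0093 and 0.42. Nr1h2, which encodes the related LXRβ, was at 0.17 and -0.13, and none of the 5 measured LXR and RXR relatives and corepressors passed 2-fold in either library. Between the libraries, 2 of 12 LXR targets in KCs were past 2-fold, the desaturases Scd1 (1.99) and Scd2 (2.19), both higher in the pool, beside 7.45% of all genes in either direction, and the median of the list was 0.60 beside -0.02 over all genes.

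Heme and iron genes tied to Spic gave 4 of 5 higher and 1 lower in KCs than in monocytes of both libraries, beside 13.9% higher and 9.14% lower of all genes in the NCD library and 11.4% and 10.3% in the pool. Slc40a1, the iron exporter ferroportin, was at 6.05 and 7.03, Vcam1 at 3.44 and 4.59, Blvrb at 2.64 and 2.66 and Hmox1, the heme oxygenase, at 2.34 and 3.15. Bach1, the repressor that heme removes from DNA, was lower in KCs at -1.67 and -1.65. None of the 5 passed 2-fold between the libraries in KCs, beside 7.45% of all genes in either direction. Their median was -0.42, beside -0.02 over all genes.

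On the BMP side of the ID genes, 4 of 8 receptors of the BMP and TGF-beta family were higher in KCs in the NCD library and 3 of 5 for the pool, beside the same 13.9% and 11.4% of all genes, which hold for the lists that follow too, as do 9.14% and 10.3% for genes lower in KCs. Bmpr1a, the receptor ALK3, had 466 and 100 UMIs in KCs against 1 and 2 in monocytes, or 34.9 and 27.6 against 0.741 and 0.607 CPM. It thus reached 100 UMIs through KCs in both libraries. Acvrl1 was at 1.85 and 1.70 and Tgfbr2 at 1.54 and 1.36. Smad1 (1.25 and 1.15) and the feedback genes Smad6 (1.96 and 2.42) and Smad7 (1.36 and 2.17) were 3 of 7 and 3 of 6 SMADs higher in KCs, and Smad3 was lower in the NCD library at -1.21. Of the ID relatives and their partners, 0 of 4 passed in the NCD library and 1 of 4 for the pool, Id2 at 1.26. In the Notch list Hes1, a Notch target, was higher in KCs at 1.91 and 1.72, while Rbpj (-2.22 and -2.24) and Notch2 (-1.52 and -1.78) were lower, which left 1 higher and 2 lower of 4. Of the ligands, 0 of 2 passed in the NCD library, and Tgfb1, the 1 ligand measured in the pool, was lower in its KCs at -1.13.

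PU.1 targets were split. In KCs against monocytes 2 of 7 were higher and 1 lower in the NCD library, and 1 and 2 in the pool, beside 13.9% higher and 9.14% lower of all genes and 11.4% and 10.3%, with Csf1r at 1.61 and 1.04 and Itgam at -2.90 and -3.73. Among 14 other macrophage factors, 4 were higher and 4 lower in the NCD library, and 2 and 1 in the pool. Tfec (1.19 and 1.83) was higher in KCs of both libraries and Runx1 (-1.11 and -1.29) lower. Of 6 factors of macrophages of other tissues 3 were measured, with 0 higher, 1 lower (Runx3) in the NCD library and 2 lower (Runx3 and Nr4a1) in the pool.

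Last, the genes whose levels over cell types were most like those of each factor were ranked by Pearson's r of log2 levels over 28 points (14 types in 2 libraries) among 11049 genes. The points share libraries and depth, so that r is a description. Among the 5 closest to Nr1h3 were Cd302 (0.954) and Apoe (0.931), and Spic was most like Trem2 (0.948, a marker used for MoMFs), Siglec1 (0.941) and Lilra5 (0.940). Among the 5 closest to Spi1 were Csf2ra (0.978) and Nfam1 (0.976). Id3 was most like Acvrl1 (0.926), the BMP receptor ALK1, and Id1 most like Wdfy3 (0.929). Rxra was most like F830016B08Rik (0.898) and Glul (0.881), Zeb2 most like its antisense gene Zeb2os (0.949), and Maf had the loosest match, Sept8 at 0.833. Among the 8 genes the closest pairs were Nr1h3 with Spic (0.864) and Nr1h3 with Rxra (0.808), and Spi1 with Maf the farthest apart at -0.235.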

How the data were processed

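Per the labels and file headers, the authors aligned the reads to GRCm38 with GENCODE M19 annotation in the BD Rhapsody WTA Analysis Pipeline 1.10.1 and deposited UMI counts per cell and gene. Whether the counting used strand is not given in the sources used here. Cells with 200 to 4000 genes and at most 25% mitochondrial UMIs were kept. The 2 libraries (53720863 and 71981673 UMIs) were clustered with Seurat 5.3.0 (4000 variable genes without the 8 genes, 30 components, resolution 0.8, then 0.5 for monocytes and macrophages), and thresholds for naming in the second round were set after the clusters were seen. Scrublet called 8.17% and 2.00% of cells doublets, which were left out only as an alternative. Counts were summed per type and library, and log2 ratios were taken after adding 1 UMI. All 8 genes, the pathway lists and, for each of the 8, the 5 genes with the highest Pearson r were eligible to be named. Some of these genes are not reported here. The members and lists were chosen with earlier results of these data known. Alternatives changed the resolution, features, filters, scaling, thinning and the way cells were named. Only the log2 ratio with its interval and the thinning were tested on simulated counts. These were drawn as Poisson counts, which the intervals assume, so that spread between cells was not tested.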

Additional observations from a re-analysis of the deposited data

Results flagged for a closer look

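Spi1 was below 0 in KCs over monocytes of the NCD library, at a log2 ratio of -0.19, and above 0 in the pool, at 0.21. Over the alternatives the first ranged from -0.28 to -0.16 and the second from 0.02 to 0.29. The difference between the libraries was not tested.

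Id3 was lower in the pool in cDC1 dendritic cells, at -0.23, and higher in monocytes, at 1.36. With 1 library per condition this difference was not tested either.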

How the results depend on the processing

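Of 84 alternative counts of genes past 2-fold or highest in KCs, 79 stayed within 1.5 times the value given. The count of genes higher in KCs than in MoMFs of the pool was 1 and became 0 with the 8 genes kept among the features, with resolution 1.0, with a mitochondrial limit of 10% and with no upper limit on genes. Among types with at least 50 cells, the count of genes highest in KCs of the pool was 3. It became 5 when cells were named by their own marker UMIs. Of 488 alternative log2 ratios 418 moved by less than their counting interval and 70 by more, 0 called ratios turned and 10 ratios changed sign, the largest at 0.48 in size. The causes were not tested. After thinning, Id1 in KCs over monocytes of the pool had under 100 UMIs and was not counted, which left 5 genes, while its ratio was 2.64 against 2.68. In endothelial cells Nr1h3 fell under 100 UMIs with a mitochondrial limit of 10%, without doublets and after thinning, where Spi1 and Id1 were the genes past 2-fold, while the ratio of Nr1h3 lay between 1.52 and 2.34 over the alternatives. The endothelial result with the 8 genes kept among the features could not be given, with 46 NCD cells and 2 cells of the pool left. Rxra and Maf of KCs stayed past 2-fold between libraries under all 9 alternatives. No paired analysis was possible because each condition has 1 library. Genes with few UMIs, such as Id1 and Spic in MoMFs and monocytes, are limited by depth.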

Other observations

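Against endothelial cells, the neighbours of KCs in the sinusoid, KCs had more Nr1h3 (log2 ratios of 4.96 [4.53 to 5.49] for NCD and 3.70 [3.37 to 4.08] for the pool), Spic (6.12 [5.45 to 7.14] and 5.95 [5.19 to 7.15]) and Spi1 (3.77 and 5.66 [5.27 to 6.15]) and less Maf (-0.83 and -1.25). Endothelial cells held 38 and 72 UMIs of Nr1h3, 13 and 10 of Spic and, in the pool, 45 of Spi1, so that these genes reached 100 UMIs through KCs. Id3 was close, at 0.05 and 0.54. The median over all genes was -0.22 and -0.29 in these comparisons.

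Among the cells with over 4000 genes that carried KC markers, Spic was at 171 [141 to 205] CPM for NCD and 209 [202 to 217] for the pool, Nr1h3 at 181 [151 to 216] and 230 [222 to 238], and Id3 at 451 [402 to 505] and 748 [734 to 763]. Their median depth was 16811 and 23121.5 UMIs.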
